A study of Mus musculus with 4 samples.

Results

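The genes described here are 9 genes of lymphoid priming, the low-level switching on of lymphocyte genes in multipotent blood progenitors. They are Il7r, Rag1, Rag2, Dntt, Ikzf1, Satb1, Notch1, Il12a and Tcf3. They were taken by symbol from the probe sets whose annotation gives exactly 1 gene. All 9 were found, with 1 probe set each, among 19938 genes with such a probe set. The annotated Tcf3 is the gene of the E protein E2A. Tcf7l1, for which Tcf3 is an older name, has a probe set of its own and was left out.

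RNA of 4 samples was measured on 1 array each. The cells were Flt3(-) LSK cells (lineage-negative, Sca-1 positive and c-Kit positive marrow cells without surface Flt3), sorted from bone marrow of mice aged 6 to 8 weeks on a C57/BL6 backcross of 4 generations. The 2 control arrays came from Mx1Cre-GABPa(FL/+) mice, with 1 floxed and 1 wild-type allele of Gabpa. The 2 arrays labelled GABPα-deficient came from Mx1Cre-GABPa(FL/-) mice, with 1 floxed and 1 null allele. Mice of both groups carried the Mx1-Cre transgene and had received pIpC, with the cells taken 4 days after the last dose. Mx1-Cre is driven by an interferon-inducible promoter that is active in blood cells and in other tissues, and pIpC is a double-stranded RNA analogue that induces it. The controls were thus heterozygous for the floxed allele and exposed to Cre and interferon too. Whether each sample held cells of 1 animal or of several is not in the labels, so each p-value covers the spread of these samples alone, which may be technical.

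Multipotent progenitors keep several fates open, and those on the way to lymphocytes transcribe some lymphoid genes before they commit. Ikaros (Ikzf1), E2A (Tcf3) and SATB1 are nuclear factors that act early on this route. Signals through Notch1 favour the T lineage, and signals through the interleukin 7 receptor support lymphoid progenitors. RAG1, RAG2 and terminal transferase (Dntt) then cut and diversify antigen receptor genes. High surface Flt3 marks the lymphoid-primed progenitors among LSK cells, so the Flt3(-) gate was set to leave them out. GABP is an ETS-family factor, and in T cells it is known to bind the Il7r promoter.

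The promoters below are shown because they belong to the genes whose values the results turn on: the 4 with the smallest p-values and Il7r, a known GABP target in T cells. They are RefSeq windows of build GRCm38.p6, each running from 250 bases before to 50 bases after an annotated start, in the direction of transcription. Capitals mark the ETS core GGAA on either strand (TTCC on the reverse). For Il12a the first of 2 listed windows is shown, and for Satb1 the first of 5.
Il7r, chr15:9529827-9530126, minus strand: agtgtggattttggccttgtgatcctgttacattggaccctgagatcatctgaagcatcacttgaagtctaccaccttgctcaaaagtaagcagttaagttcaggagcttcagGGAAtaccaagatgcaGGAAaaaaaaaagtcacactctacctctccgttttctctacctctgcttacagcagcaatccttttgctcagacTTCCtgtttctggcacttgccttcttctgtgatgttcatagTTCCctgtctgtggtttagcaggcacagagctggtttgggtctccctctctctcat
Dntt, chr19:41029025-41029324, plus strand: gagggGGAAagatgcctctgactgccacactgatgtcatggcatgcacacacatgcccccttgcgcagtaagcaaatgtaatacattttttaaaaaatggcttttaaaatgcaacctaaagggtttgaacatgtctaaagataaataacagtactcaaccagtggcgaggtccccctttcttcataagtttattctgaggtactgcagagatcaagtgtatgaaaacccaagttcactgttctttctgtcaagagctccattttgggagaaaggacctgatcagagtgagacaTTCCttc
Satb1, chr17:51833241-51833540, minus strand: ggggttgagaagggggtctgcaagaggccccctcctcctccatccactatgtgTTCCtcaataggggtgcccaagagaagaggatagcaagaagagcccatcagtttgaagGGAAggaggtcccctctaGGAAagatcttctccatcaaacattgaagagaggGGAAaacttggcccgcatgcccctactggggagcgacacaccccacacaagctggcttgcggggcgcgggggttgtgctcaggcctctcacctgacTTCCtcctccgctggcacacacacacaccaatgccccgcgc
Il12a, chr3:68690394-68690693, plus strand: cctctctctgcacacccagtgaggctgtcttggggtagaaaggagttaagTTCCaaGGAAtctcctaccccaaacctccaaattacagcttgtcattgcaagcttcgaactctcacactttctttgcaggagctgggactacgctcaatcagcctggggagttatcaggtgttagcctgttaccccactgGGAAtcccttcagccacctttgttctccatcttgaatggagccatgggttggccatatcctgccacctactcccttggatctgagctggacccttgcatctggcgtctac
Tcf3, chr10:80433586-80433885, minus strand: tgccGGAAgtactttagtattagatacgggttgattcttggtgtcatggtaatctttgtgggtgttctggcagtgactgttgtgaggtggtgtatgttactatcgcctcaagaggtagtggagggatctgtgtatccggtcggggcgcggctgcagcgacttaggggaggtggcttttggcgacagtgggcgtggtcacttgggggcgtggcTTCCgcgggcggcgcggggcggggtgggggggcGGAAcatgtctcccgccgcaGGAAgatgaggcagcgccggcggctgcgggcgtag

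The longer ETS sequence CCGGAAG, which GABP binds, was searched on both strands in all 15 windows of the 9 genes. It stood in 1 of them, that of Tcf3, 248 bases before the start. The Il7r window held 0, though GABP binds this promoter in T cells, so a missing match does not mean missing binding. Of all 32851 RefSeq windows of 300 bases, 8.86% held CCGGAAG. The core GGAA, which CCGGAAG contains, stood in 14 of the 15 windows and in 96% of all windows, a share too high to set genes apart. The E-box CANNTG, bound by E proteins, stood in 11 of the 15 windows and in 72.3% of all. The Ikaros core TGGGAA, which also contains GGAA, stood in 5 of the 15 windows and in 25.6% of all. The Tcf3 window held 4 GGAA cores and 1 E-box, and the Il7r window 4 cores and 3 E-boxes. These matches describe letters and not binding.

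The targeted gene did not separate the groups. For Gabpa, the DNA-binding subunit of GABP, the control arrays gave 8.43 and 7.28 and the arrays labelled deficient 6.43 and 7.85, on the log2 scale of all values here. Whether this probe set covers the deleted part of the gene was not analysed here, so it is no sure check of the labels. Gabpb1 and Gabpb2, its β partners, differed by −0.67 (SE 0.39) and −0.28 (SE 0.31). Kit, a receptor of the sorting gate, read 10.21 on each control array, against 7.70 and 8.50. For Flt3, whose surface protein the gate excludes, the control arrays gave 8.43 and 9.26, against 5.68 and 5.95. The Flt3 probe set thus read higher in the control cells, sorted as Flt3(-) like the others. Sca-1, the other surface marker of the gate, was not analysed here. Array medians ran from 5.87 to 6.01, and the median difference of all probe sets, deficient minus control, was 0.15. Array data carry no read depth, but the number of arrays limits the precision, and 2 arrays against 2 cannot give an exact permutation p below 0.333. The amount of RNA amplified may limit it too. Every sample carries the same range of 800 pg to 50 ng, so a difference in input between the groups could not be checked.

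Of the 9 lymphoid priming genes, Dntt, Satb1 and Il12a were lower on the arrays labelled deficient at an unadjusted p under 0.05 in limma's fit, and Tcf3 was higher. The other 5, Il7r, Rag1, Rag2, Ikzf1 and Notch1, did not pass even that threshold. Over all probe sets 5.25% were lower (1865) and 6.64% higher (2360) by the same rule, and over all genes 6.36% and 6.99%. Rescaling moved that split, to 2349 lower and 1191 higher after cyclic loess, where the median of all differences was −0.0045, and to 2185 and 1537 after subtraction of array medians. After Benjamini-Hochberg adjustment over all 35556 probe sets 0 of the 9 passed, and 0% of all probe sets did. In simulated tables with 200 changed probe sets, 0% of those changed by 1 or 2 log2 units passed that threshold. At 3 units 46.85% did. The 0 of 9 is therefore no evidence that these genes are unchanged. Adjusted p for the 9 ran from 0.369 to 0.944. All single differences below are therefore values and not calls. The median of the 9 differences was −0.040, against 0.15 for all probe sets.

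**Figure D1:**
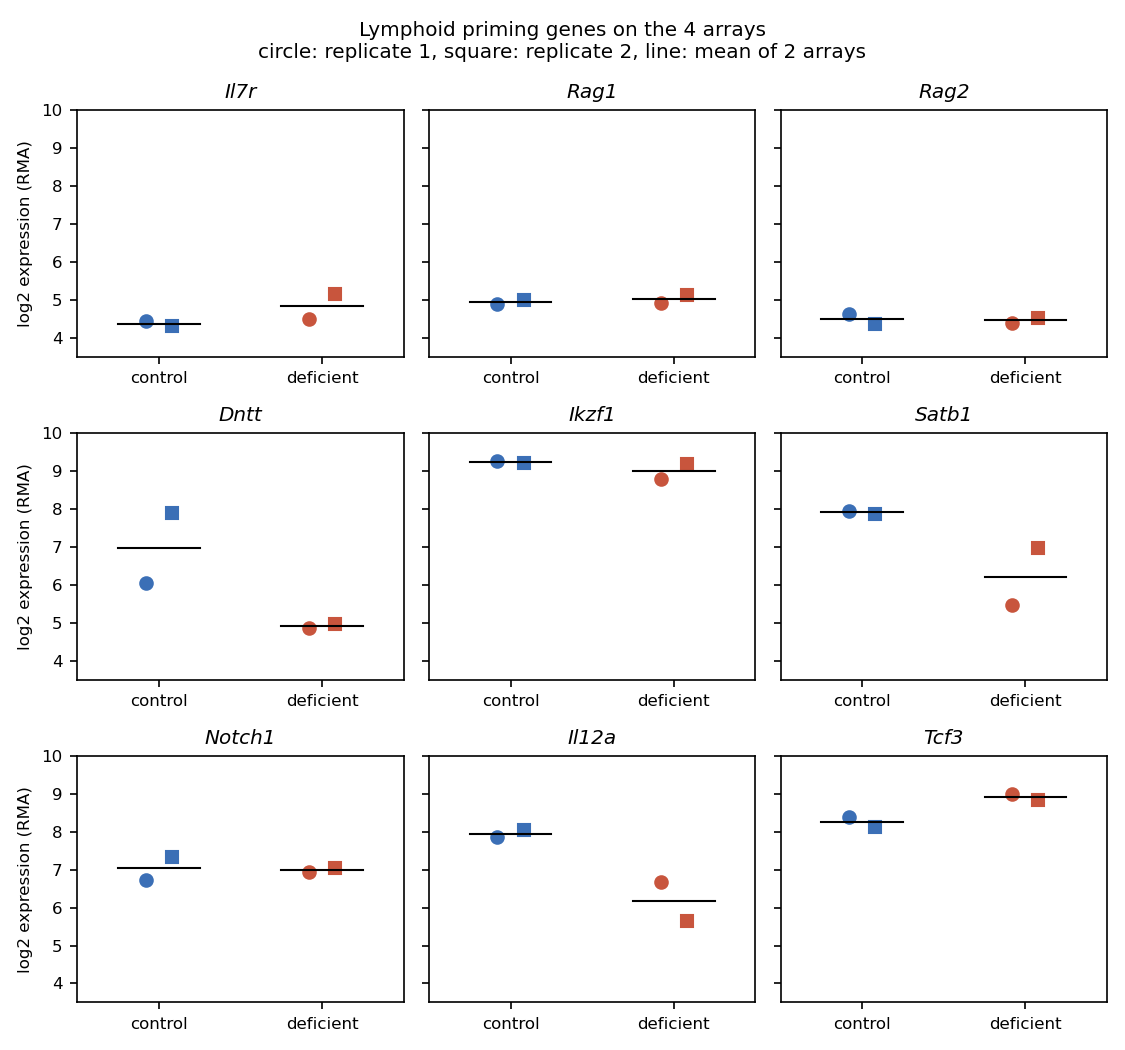
Log2 expression (vertical axis) of the 9 lymphoid priming genes on each array, with control arrays in blue, arrays labelled deficient in red, circles for replicate 1, squares for replicate 2 and lines for group means. Dntt, Satb1 and Il12a lie lower and Tcf3 higher on both arrays labelled deficient; levels of different genes come from different probes and are not comparable.

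Dntt encodes terminal transferase, the polymerase that adds untemplated bases at antigen receptor joins. On its probe set (10463123) the control arrays gave 6.06 and 7.89, and the arrays labelled deficient 4.87 and 4.98. The control arrays were far apart and the arrays labelled deficient close together, and the groups did not overlap. Group means were 6.97 ± 1.29 and 4.92 ± 0.077 (SD, 2 arrays each), and the log2 difference was −2.05 (SE 0.68, 95% interval −3.97 to −0.13, limma adjusted p = 0.412), or 4.14-fold lower. Its unadjusted limma p was 0.042, and 1.14% of all probe sets had a lower difference. Whether the values of 4.87 and 4.98 exceed background was not tested, and the 4.14-fold rests on them. Without control replicate 2, the array with the high Dntt value, the difference was −1.13, and without control replicate 1 it was −2.97.

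Rag1 and Rag2 encode the recombinase that cuts antigen receptor genes, and they lie next to each other in the genome. For Rag1 (10485372) the control arrays gave 4.89 and 5.001, and the arrays labelled deficient 4.91 and 5.14. For Rag2 (10474105) they gave 4.63 and 4.37, against 4.40 and 4.53. All arrays of each gene lay within 0.26, and the groups overlapped for both. The differences were 0.079 for Rag1 (SE 0.16, 95% interval −0.38 to 0.54) and −0.038 for Rag2 (SE 0.17, interval −0.52 to 0.45), with limma adjusted p of 0.811 and 0.916. The sign of Rag1 turned after cyclic loess (−0.14) and after subtraction of array medians (−0.0019), so neither gene has a direction here. The probe sets were dim: 28.4% of all probe sets had a lower mean than that of Rag1 and 19.9% a lower mean than that of Rag2. No detection calls were used, so whether these values exceed background was not tested.

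Il7r encodes the α chain of the interleukin 7 receptor, the growth factor receptor of early lymphoid cells. On its probe set (10427628) the control arrays gave 4.43 and 4.31, and the arrays labelled deficient 4.50 and 5.15. The groups did not overlap by a margin of 0.071, and 1 array, deficient replicate 2, stood above the other 3. The difference was 0.45 (SE 0.27, 95% interval −0.32 to 1.23, limma adjusted p = 0.485). It was 0.78 without deficient replicate 1 and 0.13 without deficient replicate 2. This probe set was dim too, with 21.7% of all probe sets below its mean, so its values set no limit on a lower transcript level.

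Il12a encodes the p35 subunit of interleukin 12, a cytokine gene transcribed in lymphoid-primed progenitors and in myeloid cells. On its probe set (10492540) the control arrays gave 7.86 and 8.05, and the arrays labelled deficient 6.69 and 5.66. Both control arrays lay above both others, and deficient replicate 2 was the lowest. Group means were 7.95 ± 0.13 and 6.18 ± 0.73 (SD, 2 arrays each), and the difference was −1.78 (SE 0.40, 95% interval −2.92 to −0.64, limma adjusted p = 0.369), or 3.43-fold lower. Its unadjusted limma p of 0.013 was the smallest of the 9. With 1 array left out the difference ran from −2.29 to −1.26.

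Among the nuclear factors, Satb1 and Tcf3 differed in opposite directions. Satb1 encodes a chromatin organiser that binds AT-rich DNA and promotes lymphoid potential in stem cells. On its probe set (10451763) the control arrays gave 7.96 and 7.87, and the arrays labelled deficient 5.46 and 6.97. The control arrays nearly coincided, and deficient replicate 1 was much lower than replicate 2. Group means were 7.92 ± 0.060 and 6.21 ± 1.07 (SD, 2 arrays each), and the difference was −1.70 (SE 0.56, 95% interval −3.30 to −0.11, limma adjusted p = 0.412), or 3.26-fold lower. Without deficient replicate 1 the Satb1 difference was −0.95, and without deficient replicate 2 it was −2.46. The lowest Satb1 value came from deficient replicate 1, whereas Il12a was lowest on deficient replicate 2. Deficient replicate 1 also gave the lowest values of Gabpa, Jak1, Hdac2, Adam17 and Xrcc4, so this is not particular to Satb1. A relation of Satb1 to Gabpa was not tested.

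Tcf3 encodes the E proteins E12 and E47, which open lymphoid genes. On its probe set (10370837) the control arrays gave 8.39 and 8.14, and the arrays labelled deficient 9.01 and 8.84. Replicates within each group were closer to each other than the groups were, which lay 0.46 apart at their nearest values. Group means were 8.26 ± 0.17 and 8.93 ± 0.12 (SD, 2 arrays each), and the difference was 0.66 (SE 0.17, 95% interval 0.17 to 1.15, limma adjusted p = 0.394), or 1.58-fold higher. Its unadjusted limma p was 0.020, and 5.41% of all probe sets had a higher difference. The Tcf3 difference was 0.52 relative to the median of all probe sets, and it ran from 0.54 to 0.78 with 1 array left out. Tcf7l1, the other gene once named Tcf3, differed by 0.185 (SE 0.21), with overlapping groups.

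Ikzf1 encodes Ikaros, a zinc finger factor that lymphoid development needs. On its probe set (10374333) the control arrays gave 9.28 and 9.21, and the arrays labelled deficient 8.79 and 9.19. The groups did not overlap by a margin of only 0.020, since deficient replicate 2 lay close to the controls. The difference was −0.25 (SE 0.20, 95% interval −0.82 to 0.31, limma adjusted p = 0.553), and −0.051 without deficient replicate 1. Notch1, the receptor whose signal favours the T lineage, stood on its probe set (10481056) at 6.73 and 7.34 in the control group, against 6.94 and 7.05. Both arrays labelled deficient lay between the control arrays. The difference was −0.040 (SE 0.26, 95% interval −0.78 to 0.70, limma adjusted p = 0.944), and 0.27 without control replicate 2.

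**Figure D2:**
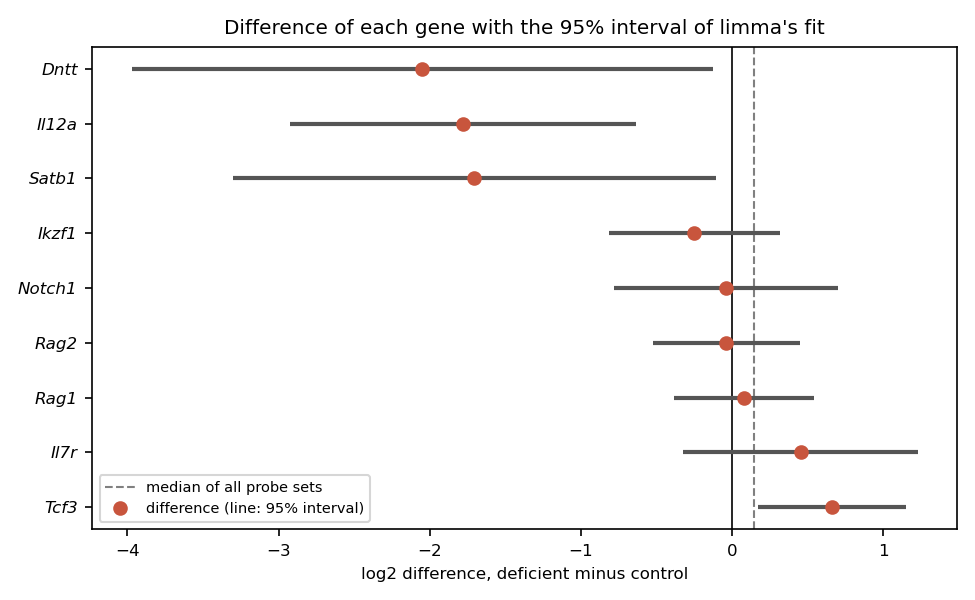
Log2 difference, deficient minus control (horizontal axis), of the 9 genes, with bars for the 95% interval of limma's fit over 4 arrays, a solid line at 0 and a dashed line at the median of all probe sets (0.15). The intervals of Dntt, Il12a and Satb1 lie below 0 and that of Tcf3 above 0, before any adjustment for the number of probe sets; the other 5 include 0.

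The groups did not overlap for 6 of the 9 genes, 4 lower (Dntt, Il12a, Satb1 and Ikzf1) and 2 higher (Tcf3 and Il7r). Over all probe sets 14% did not overlap and were lower, and 38.9% did not overlap and were higher. The gap between the nearest arrays was 1.17 for Il12a, 1.08 for Dntt and 0.91 for Satb1. It was wider than the range within either group for Il12a and, at 0.46, for Tcf3. For Dntt the control range was 1.83 and for Satb1 the range of the arrays labelled deficient was 1.51.

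Dntt, Satb1, Il12a and Tcf3 each failed the unadjusted threshold in some of the fits with 1 array left out. Without control replicate 1, Dntt and Tcf3 kept an unadjusted p under 0.05, and without control replicate 2 only Dntt did. Without deficient replicate 1, Satb1, Il12a and, on the higher side, Il7r passed. Without deficient replicate 2, Satb1, Il12a and Tcf3 passed. In these fits the group with 1 array left is assumed to vary like the other. Dntt, Satb1, Il12a and Tcf3 kept their sign in all 4. With 1 array left out the unadjusted limma p ran from 0.0011 to 0.13 for Dntt, from 0.0012 to 0.14 for Satb1, from 0.0018 to 0.067 for Il12a and from 0.040 to 0.092 for Tcf3.

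**Figure D3:**
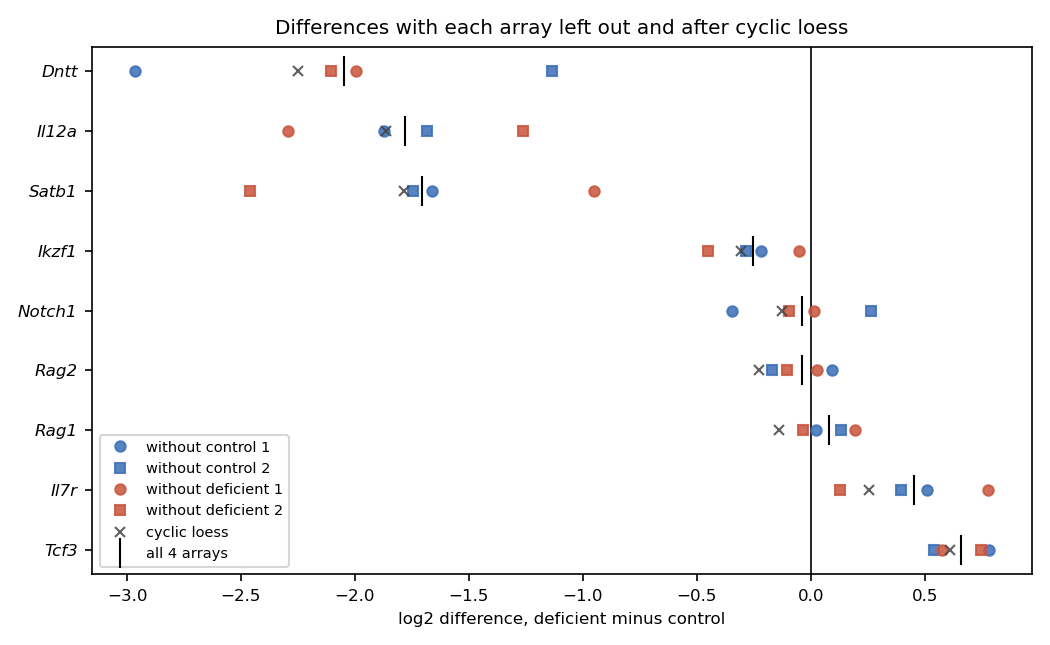
Log2 difference, deficient minus control (horizontal axis), of the 9 genes with all 4 arrays (bars), with each array left out (blue for a control array, red for an array labelled deficient, circles for replicate 1, squares for replicate 2) and after cyclic loess (crosses). Dntt moves most when a control array is left out (−2.97 to −1.13), Satb1 when an array labelled deficient is (−2.46 to −0.95).

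Other genes were compared with the 3 genes whose values spanned over 1 log2 unit, by the root mean square distance of their values over the 4 arrays, each centred on its own mean. Among 19937 other genes, the closest to Dntt were Fzd3, a Wnt receptor (distance 0.086), and Gm14410 (0.22). The closest to Satb1 were Tm6sf1 (0.071) and Rab37, a small GTPase (0.077). The closest to Il12a were Pstpip1, a cytoskeletal adaptor of blood cells (0.11), and Tbk1, a kinase of innate immune signalling (0.12). Within a distance of 0.25 lay 4 genes for Dntt, 60 for Satb1 and 29 for Il12a. Dntt, with unequal control arrays, had the fewest such neighbours of the 3.

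The pathways around the 9 genes were read from lists that leave these genes themselves out, at an unadjusted p under 0.05 throughout. In each list 0 genes passed the adjusted threshold, and the shares to read them against are 6.36% lower and 6.99% higher over all genes. Of 21 measured other genes of lymphoid-primed progenitors, 9 were lower and 1 higher, with a median of −0.35, or −0.85 over those among the brighter 50% of probe sets. Flt3 differed by −3.03 (SE 0.35), Dapp1, an adaptor of lymphocyte signalling, by −2.45 (SE 0.17), Cd27, a costimulatory receptor, by −2.05 (SE 0.25) and Spi1, the gene of PU.1, by −1.09 (SE 0.15). Ly6d, a surface marker of lymphoid progenitors and plasmacytoid dendritic cells, passed on the higher side (0.98, SE 0.28). Cnn3 (1.15, SE 0.41), Blnk (0.37, SE 0.22), Ccr7 (0.35, SE 0.16) and Bach2 (0.28, SE 0.14) were higher without passing, with groups that did not overlap. These 5 were named after their values were seen. So were the other genes that passed on the lower side. They were Mef2c (−1.26, SE 0.41), Runx1 (−1.55, SE 0.39), Erg (−1.21, SE 0.31), Myb (−1.39, SE 0.43) and Lsp1 (−1.13, SE 0.17). Of the 21 genes 14 were below 0 and 7 above. Stem cell markers were lower too, 7 of 11 with a median of −1.12, so lower values were not particular to this list. The count of 9 was 5 without control replicate 1, and the 1 higher gene was 0 without control replicate 2.

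Of 10 other genes around the E proteins, 2 were lower and 3 higher, with a median of 0.17, which was 0.039 after cyclic loess and 0.062 with the brighter 50% of probe sets. The 3 on the higher side encode Id proteins, which bind E proteins and keep them from DNA. For Id3 the control arrays gave 5.63 and 5.56 and the arrays labelled deficient 7.35 and 6.61, a difference of 1.38 (SE 0.30). Id1 differed by 0.96 (SE 0.25), and Id2, named after its value was seen, by 0.75 (SE 0.26). Id4, the other Id gene of the list, did not pass (0.27, SE 0.23) and its groups overlapped. On the lower side were Lmo2, a bridging factor of E protein complexes (−0.56, SE 0.15), and Tcf12, the E protein HEB, also named after its value was seen (−1.26, SE 0.41). The 3 higher genes were 1 without deficient replicate 1, 0 without control replicate 1 and 1 without control replicate 2. The 2 lower genes were 0 without deficient replicate 2 and 1 without either control array.

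In the interleukin 7 receptor pathway, 0 of 10 other genes were lower and 2 higher, both of them feedback inhibitors of cytokine signalling. Socs3 differed by 0.94 (SE 0.14) and Socs1 by 0.48 (SE 0.14). The count of 2 was 1 whichever array was left out, and without deficient replicate 2 another 2 genes were lower. Bcl2, a survival gene downstream of the receptor, differed by −1.61 (SE 0.64) without passing. In V(D)J recombination and end joining, 2 of 9 other genes were lower and 0 higher, with a median of −0.44. They were Atm, a DNA damage kinase (−1.10, SE 0.14), and Xrcc4, a ligase partner in end joining (−1.42, SE 0.43). This median was −0.19 with the brighter 50% of probe sets, where Atm has no value and 1 gene was lower. It was −0.084 without control replicate 1 and −0.79 without control replicate 2, and the count of 2 was 1 and 4 in turn. Without deficient replicate 2 the list had 1 higher gene.

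Of 14 other genes of the Ikaros family and its partners, 2 were lower and 0 higher, with a median of −0.29. Ikzf2, the gene of Helios, differed by −1.02 (SE 0.25) and Chd4, a nucleosome remodeller that associates with Ikaros, by −0.70 (SE 0.15). The count of 2 was 1 without deficient replicate 1, 4 without deficient replicate 2, where 1 was higher, and 1 without control replicate 1. In the interleukin 12 family and its receptor, 1 of 10 other genes was lower and 0 higher. This was Stat4, the factor activated by the interleukin 12 receptor (−2.35, SE 0.44). Stat4 was not among the brighter 50% of probe sets. The count of 0 with that filter is thus no retest of it.

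Of 29 other Notch pathway genes, 3 were lower and 1 higher, with a median of 0.20, which was 0.083 after cyclic loess. Mfng, a fringe enzyme that modifies Notch receptors, differed by −1.42 (SE 0.15), Itch, a ubiquitin ligase that acts on Notch, by −2.31 (SE 0.44), and Adam10, the protease that sheds its outer part, by −1.29 (SE 0.45). Jag1, a ligand, differed by 0.61 (SE 0.18). With 1 array left out, 2 to 4 genes were lower and 0 to 2 higher, with 2 lower and 0 higher without control replicate 1, and 2 higher without either array labelled deficient.

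**Figure D4:**
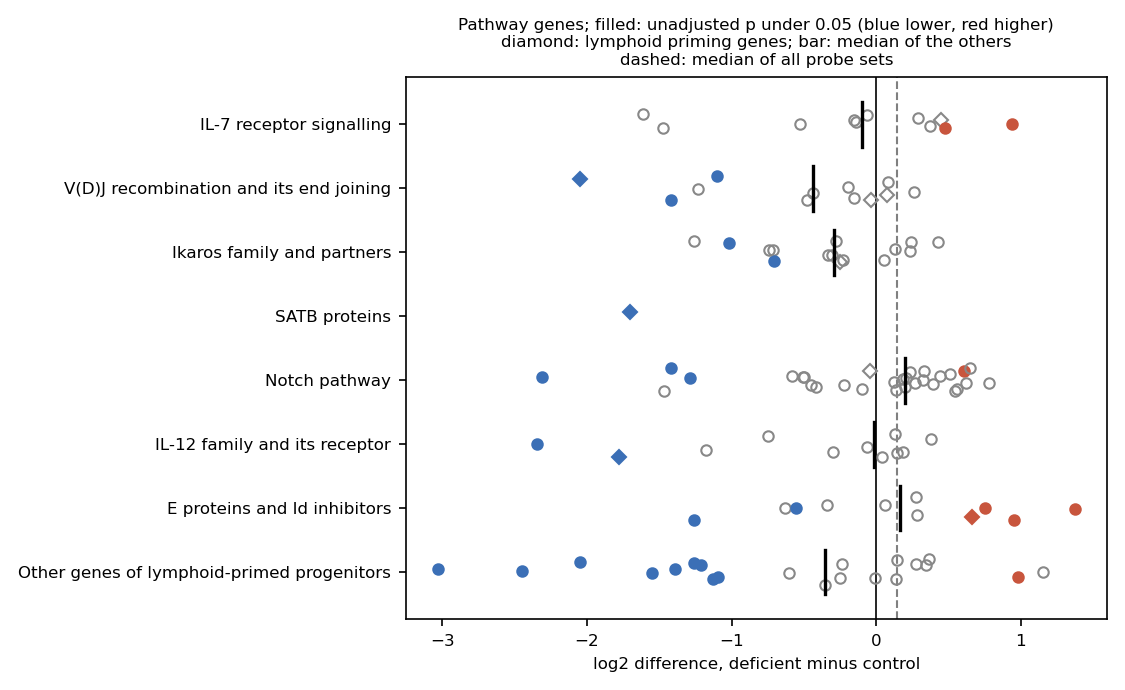
Log2 difference, deficient minus control (horizontal axis), of each gene of 8 pathway lists, filled where the unadjusted limma p was under 0.05, with diamonds for the 9 lymphoid priming genes, bars for the median of the others and a dashed line at the median of all probe sets. Among other genes of lymphoid-primed progenitors 9 of 21 are filled on the lower side, and Id1, Id2, Id3 and Tcf3 are filled on the higher side.

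Markers of other cells differed between the same arrays. In these sorted but bulk samples, fewer cells of a type and less RNA per cell cannot be told apart. Of 11 stem cell markers 7 were lower and 0 higher, with Cd34, a sialomucin, at −3.54 (SE 0.22) and Meis1, a homeobox factor, at −3.01 (SE 0.39). Fgd5 (0.18, SE 0.20), Procr (−0.25, SE 0.17), Hoxa9 (−0.52, SE 0.25) and Mecom (−0.92, SE 0.57) did not pass. Summed over the list and then put on the log2 scale, the markers ran from 12.57 to 12.66 on the control arrays and from 10.28 to 10.55 on those labelled deficient. On the control arrays the brightest gene in this sum was Cd34, at 11.30 and 11.31. Of 11 erythroid markers 7 were higher and 0 lower, with summed levels of 11.09 to 11.28 against 12.73 to 13.26, and Klf1, an erythroid factor, at 1.77 (SE 0.14). Of 13 macrophage markers 7 were higher and 0 lower, with summed levels of 10.13 to 10.30 against 11.14 to 12.03. Of 12 stromal and endothelial markers 6 were higher and 0 lower, with summed levels of 9.93 to 10.02 against 11.08 to 11.39. Without deficient replicate 1 the erythroid count was 11. The macrophage count was 12 without deficient replicate 2 and 4 without either control array, and the stromal count was 2 and 3 without control replicates 1 and 2, with 1 lower gene without control replicate 1 or deficient replicate 2. After cyclic loess 7 erythroid, 6 macrophage and 3 stromal markers were higher, and with the brighter 50% of probe sets 6, 6 and 2. Markers too dim for that filter, such as the erythroid Alas2, have no value there. The lineage-negative, Sca-1 and c-Kit positive gate is set to remove mature erythroid cells and macrophages. The part of any such cells in the values of Dntt, Satb1, Il12a and Tcf3 was not tested.

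Counts of mature lymphoid markers depended on the scaling. After cyclic loess 1 B lineage marker was higher and 1 lower, 3 plasma cell markers were higher and 0 lower, 0 T lineage markers passed, and 1 marker of NK and innate lymphoid cells was higher and 1 lower. With the deposited scaling, of 13 B lineage markers 1 was lower, Cd72 (−1.08, SE 0.27), and 2 were higher, Cd79a, a chain of the B cell receptor (0.84, SE 0.16), and Pou2af1, a B cell coactivator (1.12, SE 0.37). Their summed level ran from 10.48 to 10.66 on the control arrays and from 10.62 to 11.49 on those labelled deficient. Such sums weigh the brightest probe sets most. On the arrays labelled deficient the brightest B lineage gene was Vpreb1, at 8.75 and 10.38, with groups that overlapped. Of 9 plasma cell markers 6 were higher and 0 lower, among them Sdc1 (1.43, SE 0.15) and Mzb1 (1.59, SE 0.23). Summed levels of the 9 were 10.0045 to 10.61 against 11.23 to 11.31. The brightest gene in this sum was Jchain, at 9.65 and 8.43 against 9.93 and 10.49, which did not pass. The plasma cell count was 4 after subtraction of array medians, and 3 and 2 without control replicates 1 and 2. The B lineage count of 2 was 1 without control replicate 1, and 0 were lower without deficient replicate 1.

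Of 12 T lineage markers 0 were lower and 3 higher, Cd4, Cd8b1 and Themis, at 0.51 to 0.53. Lat, the 1 marker below 0, had the largest difference of the list (−1.33, SE 0.54), with groups that did not overlap, without passing. Summed levels of the T lineage markers overlapped between the groups. The T lineage median was 0.38, and 0.16 after cyclic loess. The 3 higher genes were dim, with 36.5% (Cd4), 43.8% (Cd8b1) and 16.8% (Themis) of all probe sets below their means. They have no value among the brighter 50% of probe sets, so that filter cannot retest them. The count of 3 was 0 after cyclic loess. Without deficient replicate 2 or control replicate 1 it was 0 too, and without control replicate 2 it was 1, while 1 was lower without deficient replicate 1. Of 11 markers of NK and innate lymphoid cells 2 were higher, Gzmb, a granule protease (1.73, SE 0.20), and Ncr1, an NK receptor (1.05, SE 0.32), and 0 were lower. The summed level of this list went the other way, from 10.80 to 10.98 on the control arrays against 10.26 to 10.37, with Nkg7, a granule protein, at −1.98 without passing. That count was 5 without deficient replicate 1, and 1 without deficient replicate 2 or control replicate 2, and 1 was lower without either array labelled deficient. Of 8 plasmacytoid dendritic cell markers 0 passed in either direction, with Siglech at 0.41 (SE 0.14), though 1 was higher without deficient replicate 1 and 2 without deficient replicate 2 or with the mean of a gene's probe sets. Their summed levels ran from 9.76 to 10.01 against 9.74 to 10.42. For Ebf1, which B lineage cells need, the control arrays gave 4.84 and 5.11 against 4.96 and 5.52, and for Cd3e, a chain of the T cell receptor complex, they gave 6.30 and 6.29 against 6.66 and 6.43. Granulocyte and monocyte markers held 2 lower genes of 12, Mpo (−0.86, SE 0.20) and Csf3r (−1.04, SE 0.22), and 0 higher ones, with summed levels of 13.60 to 13.82 against 13.33 to 13.71. The list split evenly, with 6 genes below 0 and 6 above. The secondary granule and S100 genes Ngp (1.07, SE 0.67), S100a9 (1.003, SE 0.48), Ltf (0.81, SE 0.34) and S100a8 (0.78, SE 0.36), named after their values were seen, were on the higher side with groups that did not overlap, without passing. The count of 2 was 5 without deficient replicate 1 and 1 without any other array, and 1 was higher without deficient replicate 1 and 2 without control replicate 1.

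**Figure D5:**
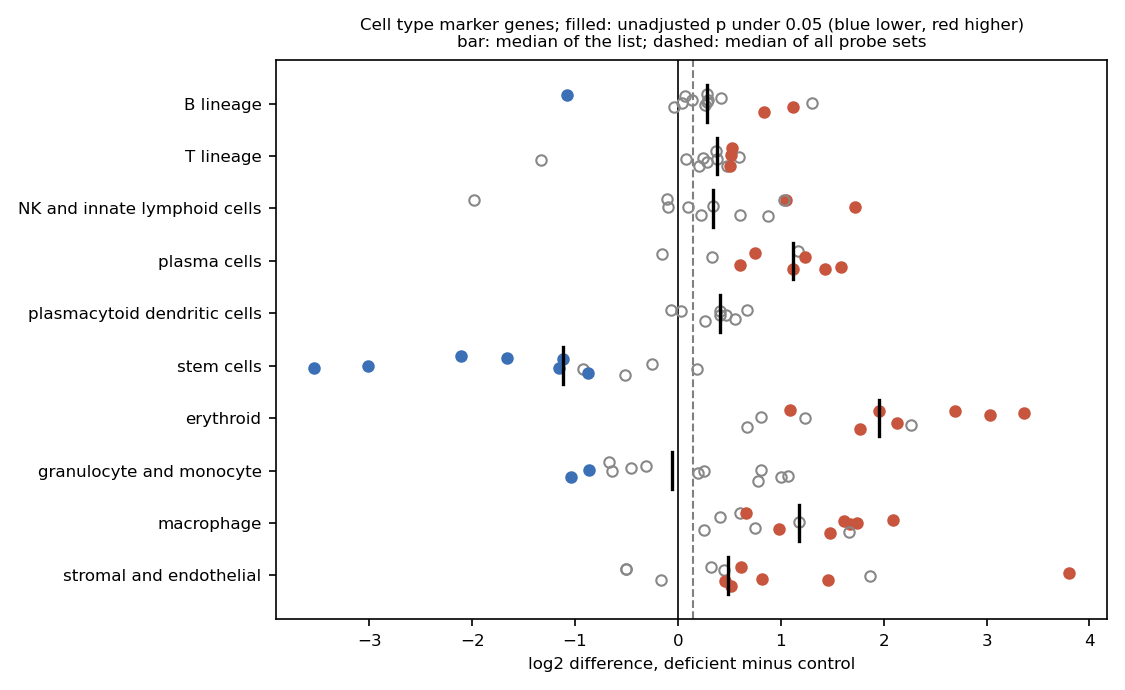
Log2 difference, deficient minus control (horizontal axis), of each marker gene of 10 cell type lists, filled where the unadjusted limma p was under 0.05, with bars for list medians and a dashed line at the median of all probe sets. Stem cell markers lie mostly below 0, and erythroid, macrophage and plasma cell markers mostly above it.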

How the data were processed

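The deposited files hold the authors' log2 values for each array. RMA and Partek are named, with no version, in the submitters' processing notes. Background correction and quantile normalization are part of RMA, and they can compress the differences of dim probe sets. The values, from 1.98 to 13.7, were used without further normalization, and 0 columns were left over. The genome build of the probe annotation was not used here. Per the labels, 800 pg to 50 ng of RNA was amplified before hybridisation.

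Probe sets were named from the platform annotation, with symbols updated by Entrez gene number through RefSeq's table of GRCm38.p6. Of 35556 probe sets, 21789 had 1 symbol (21698 matched by number), 1621 several and 12146 none. A gene with several single-gene probe sets was read from its brightest, by the mean of 4 arrays.

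Groups were compared with limma 3.58.1 in R 4.3.3 (lmFit, eBayes, genotype as the only term, two-sided, Benjamini-Hochberg over all probe sets, threshold 0.05). SE and 95% intervals come from this moderated fit. Figures used matplotlib 3.10.9. Promoter windows were searched by exact match. The alternatives were another normalization (cyclic loess, array medians subtracted), a brightness filter, the replicate block, other prior variances, each array left out, and the mean of a gene's probe sets. The genes and lists were chosen with earlier results of these data known. Named genes were the 9, the GABP subunits, Kit, Flt3 and defining markers, up to 4 genes per pathway list and 3 per cell type list with the smallest p, and the 2 closest genes to each of the 9 that spanned over 1 log2 unit. The fit was first tested on simulated tables.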

Additional observations from a re-analysis of the deposited data

How the results depend on the processing

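With 2 arrays a group, limma called 0 probe sets at an adjusted p under 0.05 with all arrays (1865 lower and 2360 higher at an unadjusted p under 0.05) and in each alternative that tested probe sets, where the lowest adjusted p was 0.148. The count of higher probe sets at an unadjusted p was 1537 after subtraction of array medians, 1191 after cyclic loess, 964 with the brighter 50% of probe sets and 1341 with the replicate block, and from 714 to 2198 with 1 array left out. The count of the 9 genes lower at an unadjusted p ran from 1 to 2 with 1 array left out, and the count higher from 0 to 1, with 0 under a trended prior variance, where Tcf3 stood at 0.054. The replicate block moved Satb1 to an unadjusted limma p of 0.056. Same-numbered arrays deviated with a correlation of −0.088, and the main fit left the numbers out. That correlation cannot show whether same-numbered arrays shared a preparation or hybridisation day. Over 78 named genes and 11 alternatives, 828 of 838 differences kept their sign. This count is no measure of stability. The replicate block, the other prior variances and the brightness filter reuse the same difference and could not turn a sign. The mean of a gene's probe sets could not turn any of the 9, with 1 probe set each. Many of the 78 were also named for a small p in these same arrays. The 10 that turned, with causes not tested, belonged to 6 genes. Rag1 stood at −0.0019 after subtraction of array medians, at −0.14 after cyclic loess, and from −0.035 to 0.19 with 1 array left out. In the same way Rag2 ran from −0.17 to 0.092, Notch1 from −0.35 to 0.27, Gabpa from −1.42 to 0.0021, Gabpb2 from −0.65 to 0.098 and Ebf1 from −0.013 to 0.55. The median of the 9 differences was 0.013 without deficient replicate 1. Il7r, Rag1, Rag2 and Dntt fell below the brightness limit of the brighter 50% and have no value there. The same holds for genes of the lists, among them Atm, Stat4, Alas2, Cd4, Cd8b1 and Themis. A lower count with that filter can therefore reflect genes left out.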
